A study of Homo sapiens with 18 samples.

Results

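TGF-β signalling was followed through the RNA of 9 genes: the ligand genes TGFB1, TGFB2 and INHBA, the receptor genes TGFBR1, TGFBR2 and TGFBR3, and the SMAD genes SMAD3, SMAD6 and SMAD7. They were taken by symbol from the 60642 gene symbols counted in each library, and all 9 were found. The cells were MDA-MB-231, an established human triple-negative breast cancer line of mesenchymal type, transfected with siNS (a non-specific siRNA), siHP1γ (against CBX3, which encodes the chromatin protein HP1γ) or siPRMT5 (against PRMT5, an arginine methyltransferase). Each was then treated for 8 h with 100 nM Dex (dexamethasone, a synthetic glucocorticoid that activates GR) or with ethanol, its vehicle (Eth). This gave 6 conditions of 3 biological replicates and 18 libraries. Each siRNA is a pool used in 1 cell line, so siRNA and depletion cannot be told apart, and in bulk RNA fewer cells that express a gene and less RNA per cell cannot be told apart either.

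Gene counts summed to 8682992 in the shallowest library and 12472381 in the deepest. The labels were checked on the siRNA targets. PRMT5 lay between 226 and 262 CPM (counts scaled to a common library size, with TMM) in siNS cells and between 6.09 and 11.5 CPM in siPRMT5 cells. CBX3 lay between 220 and 274 CPM in siNS cells and between 9.21 and 15.8 CPM in siHP1γ cells, where reads of its 8 pseudogenes may add to it. PRMT5 was also slightly lower in siHP1γ than in siNS cells, at -0.25 ± 0.075 with Eth and -0.35 ± 0.075 with Dex (log2 fold change ± SE, 3 libraries per condition, the form of all differences below; adjusted p = 0.0111 and 0.00123 in edgeR), and the part of this in the siHP1γ results was not tested. Of the markers of the line, VIM was at 5435 CPM or more and ESR1, PGR and CDH1 held at most 2 counts in any library. EPCAM, which should be low, was at 8.55 CPM or more (80 to 155 counts). AXL was at 182 CPM in its lowest library and 1002 CPM in its highest, with all siPRMT5 libraries at 226 CPM or less, and the part of this in the siPRMT5 results was not tested. The leukocyte marker PTPRC held at most 2 counts. The endothelial marker PECAM1 lay between 1.10 and 8.14 CPM (10 to 81 counts) and moved with the groups. With Eth it was at 1.29 ± 0.175 CPM in siNS, 2.66 ± 0.417 in siHP1γ and 3.25 ± 0.480 in siPRMT5 cells (mean ± SD), and with Dex at 4.14 ± 0.339, 4.10 ± 0.546 and 6.81 ± 1.25 CPM. Its Dex libraries were all above its Eth libraries for each siRNA, and its part in the results below was not tested.

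TGF-β ligands are secreted in a latent form and, once freed, bind the type II receptor TGFBR2, which recruits and activates the type I receptor TGFBR1. TGFBR1 phosphorylates SMAD2 and SMAD3, which enter the nucleus with SMAD4 and regulate transcription, whereas SMAD6 and SMAD7 inhibit receptors and R-SMADs and are themselves induced by the pathway as negative feedback. In breast cancer the pathway is known both for growth arrest in early tumours and for invasion and epithelial-mesenchymal transition in advanced ones.

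The promoters of 3 genes are shown because the results given further on turn on them: SMAD6 had the largest difference of the 9 genes between a depletion and siNS cells, and TGFBR3 and TGFB2 were the genes called for Dex in siNS cells. Each window runs from 250 bases before to 50 bases after a RefSeq start on GRCh38.p14, and capitals mark matches to any of 4 motifs searched on both strands. These were GTCTAGAC (a SMAD palindrome), a glucocorticoid response element (AGAACA and TGTTCT with 3 bases between them), its half-site AGAACA, which overlaps it, and TGANTCA (AP-1).
SMAD6, chr15:66701986-66702285, plus strand: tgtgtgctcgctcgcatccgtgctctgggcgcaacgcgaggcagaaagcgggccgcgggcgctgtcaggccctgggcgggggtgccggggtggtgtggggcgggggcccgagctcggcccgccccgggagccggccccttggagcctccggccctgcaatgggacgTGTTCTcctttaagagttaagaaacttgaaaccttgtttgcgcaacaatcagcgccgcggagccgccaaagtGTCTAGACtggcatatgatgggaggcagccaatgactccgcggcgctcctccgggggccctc
TGFBR3, chr1:91886102-91886401, minus strand: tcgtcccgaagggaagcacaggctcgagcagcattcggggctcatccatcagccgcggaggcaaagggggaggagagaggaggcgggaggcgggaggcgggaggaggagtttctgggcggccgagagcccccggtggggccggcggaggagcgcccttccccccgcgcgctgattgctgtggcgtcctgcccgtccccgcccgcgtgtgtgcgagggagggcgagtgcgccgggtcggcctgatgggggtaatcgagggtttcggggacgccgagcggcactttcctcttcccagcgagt
TGFB2, chr1:218345086-218345385, plus strand: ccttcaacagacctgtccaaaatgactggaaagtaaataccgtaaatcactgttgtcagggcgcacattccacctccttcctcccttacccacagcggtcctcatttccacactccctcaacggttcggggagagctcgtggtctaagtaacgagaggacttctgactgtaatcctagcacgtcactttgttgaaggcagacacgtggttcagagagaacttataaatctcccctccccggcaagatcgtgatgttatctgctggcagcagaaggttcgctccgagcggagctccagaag
The SMAD6 window held GTCTAGAC, which was found in 0.202% of 35116 promoter windows of the same length and in 1 of the 23 windows of the 9 genes. It begins 12 bases before the start, and the half-site match, TGTTCT, begins 84 bases before it. The half-site was found in 14.8% of all windows and in 4 of the 23, which belong to SMAD6, TGFBR1 and TGFBR2. TGANTCA was found in 7.71% of all windows and in 2 of the 23, of SMAD3 and TGFBR2. The full glucocorticoid response element was in none of the 23 and in 0.00285% of all windows. A match describes letters only. The TGFBR3 window lies inside the gene as GENCODE 44 draws it, whose start is further upstream.

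Levels differed widely among the 9 genes. Per exonic kilobase, siNS cells with Eth held 104 CPM of TGFBR2, 28.9 of TGFB1, 13.1 of SMAD3, 11.3 of TGFBR1, 5.30 of TGFB2 and 5.10 of TGFBR3. SMAD7 (0.503), INHBA (0.106) and SMAD6 (0.0864) were far lower on the same scale. These 3 genes held 4 to 50 counts per library, so counting error is a large share of their spread. Whether the libraries cover whole transcripts or their 3' ends is not given in the sources used here, which bears on any level per length. All 9 genes passed the filter on low counts, which asks for 0.998 CPM in at least 3 libraries. The other 6 reached it in every library. SMAD6 reached it in 0 siNS Eth libraries and 2 siHP1γ Eth libraries, INHBA in 1 siNS Eth, 2 siHP1γ Eth and 0 siPRMT5 Eth libraries, and SMAD7 in 2 siNS Dex libraries, with 3 of 3 in their other conditions.

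**Figure D1:**
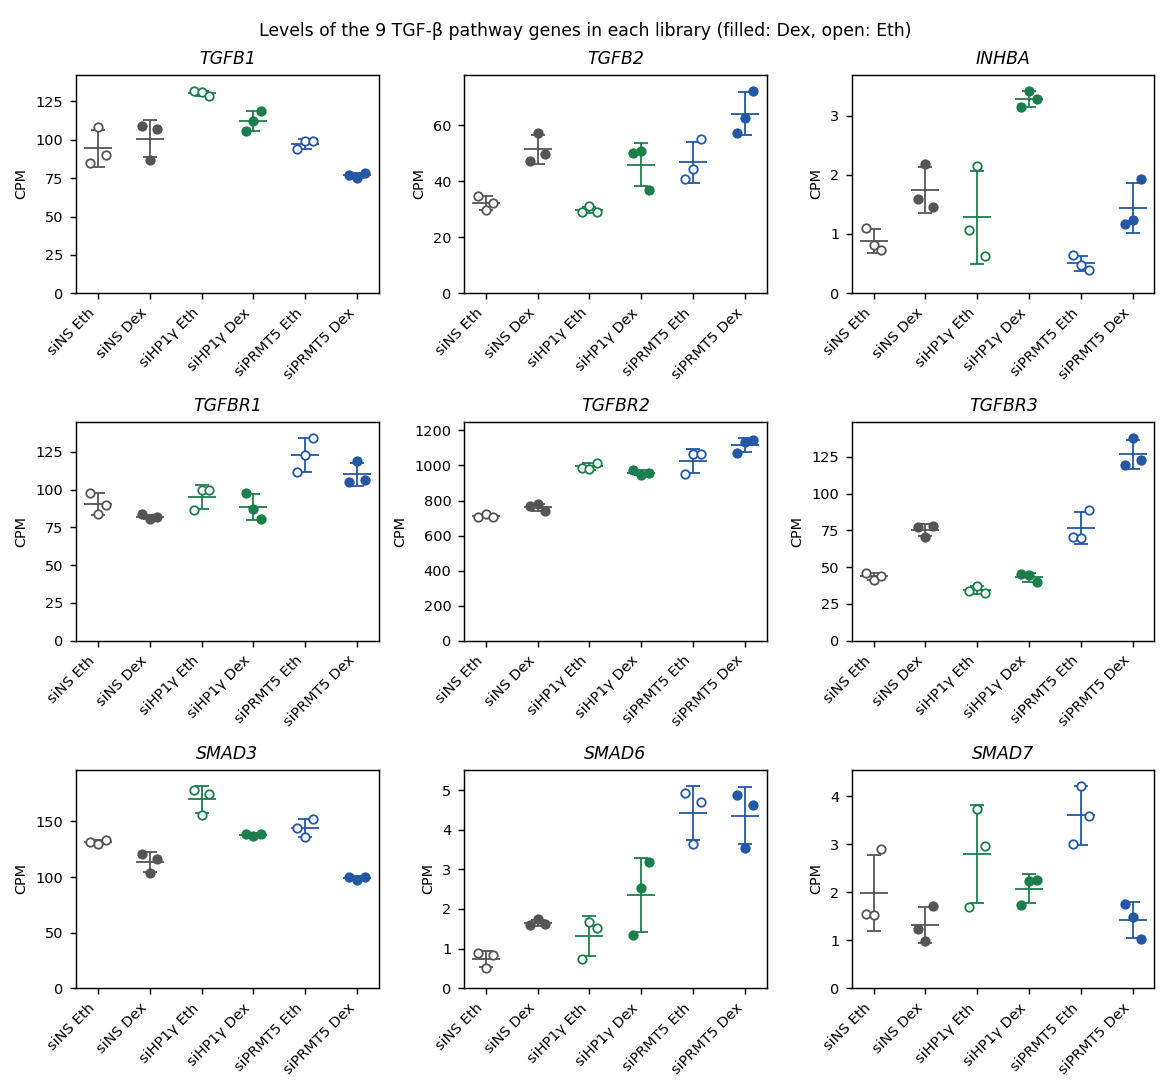
CPM of each of the 9 genes (y axis, linear, from 0, a scale per gene) in the 6 conditions (x axis), with a point per library and the mean ± SD of 3 libraries. TGFBR3 is lowest in siHP1γ Eth (34.5 ± 2.58) and highest in siPRMT5 Dex (127 ± 9.68), and SMAD6 is highest in both siPRMT5 conditions.

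TGFB1 encodes the TGF-β1 ligand (ENSG00000105329, chromosome 19, 41301587 to 41353922, minus strand, hg38). In siNS cells its libraries had 84.8, 108 and 90.2 CPM with Eth and 109, 86.7 and 107 CPM with Dex. In siHP1γ cells they had 132, 131 and 129 CPM with Eth and 106, 112 and 119 CPM with Dex. In siPRMT5 cells they had 93.8, 98.9 and 99.5 CPM with Eth and 77.0, 74.9 and 78.3 CPM with Dex. The 3 siHP1γ Eth libraries were above all others and the 3 siPRMT5 Dex libraries were below all others, while the remaining 4 conditions formed an order, from siNS Eth through siPRMT5 Eth and siNS Dex to siHP1γ Dex, in which neighbours overlapped. With Eth, TGFB1 was higher in siHP1γ than in siNS cells by 0.47 ± 0.086 (adjusted p = 1.56e-04, edgeR quasi-likelihood test with Benjamini-Hochberg adjustment over 15298 genes, as for all tests below). With Dex, it was lower in siPRMT5 than in siNS cells, at -0.40 ± 0.087 (adjusted p = 6.03e-04, edgeR). With Dex in siHP1γ cells (0.15 ± 0.085, adjusted p = 0.205) and with Eth in siPRMT5 cells (0.046 ± 0.087, adjusted p = 0.711) the difference from siNS cells missed the threshold in edgeR. With library size in place of TMM, the first of these passed it, at 0.23 (adjusted p = 0.0457, edgeR). Exons of TGFB1 overlap the gene spans of HNRNPUL1 and TMEM91 on the other strand. Whether they overlap exons of these genes was not examined, and the strand setting of the counting is not given in the sources used here. HNRNPUL1 lay between 545 and 661 CPM in siNS and siHP1γ libraries and between 752 and 832 CPM in siPRMT5 libraries, and its part in the TGFB1 counts was not tested.

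TGFB2 encodes the TGF-β2 ligand (ENSG00000092969, chromosome 1, 218345336 to 218444619, plus strand), and its promoter is printed above. In siNS cells its libraries had 34.6, 29.6 and 32.1 CPM with Eth and 47.1, 57.1 and 49.8 CPM with Dex. In siHP1γ cells they had 29.0, 31.1 and 29.1 CPM with Eth and 49.98, 50.9 and 37.0 CPM with Dex. In siPRMT5 cells they had 40.72, 44.4 and 55.0 CPM with Eth and 57.2, 62.6 and 72.3 CPM with Dex. For each siRNA the Dex libraries were all above the Eth libraries, and the 3 siPRMT5 Dex libraries were above all others. The siHP1γ Eth and siNS Eth libraries overlapped at the bottom. In the middle, neighbours in the order siHP1γ Dex, siPRMT5 Eth, siNS Dex overlapped. Dex raised TGFB2 by 0.68 ± 0.12 in siNS cells (adjusted p = 3.48e-04, edgeR) and by 0.63 ± 0.12 in siHP1γ cells (adjusted p = 0.00130, edgeR). In siPRMT5 cells the difference was 0.45 ± 0.12 (adjusted p = 0.00759, edgeR), a fold of 1.37 that missed the limit of 1.5 used for Dex. Compared with siNS cells, TGFB2 was higher in siPRMT5 cells by 0.55 ± 0.12 with Eth (adjusted p = 8.54e-04, edgeR) and by 0.32 ± 0.12 with Dex (adjusted p = 0.0275, edgeR). The difference with Dex missed the threshold without siNS Dex replicate 1 (0.27), siNS Dex replicate 3 (0.30) or siPRMT5 Dex replicate 3 (0.23). The Dex response in siHP1γ cells fell under the fold limit without siHP1γ Dex replicate 1 (0.57) or 2 (0.56). Without replicate 2 it also missed the limit of 0.01 used for Dex (adjusted p = 0.0124, edgeR). The Dex response in siPRMT5 cells passed both limits without siPRMT5 Eth replicate 3 (0.59). The antisense gene TGFB2-AS1, whose span overlaps exons of TGFB2, reached at most 1.37 CPM, against at least 29.0 CPM for TGFB2.

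INHBA encodes the βA subunit of activins, ligands that signal through SMAD2 and SMAD3 as TGF-β does (ENSG00000122641, chromosome 7, 41667168 to 41705834, minus strand). The siNS libraries held 10, 8 and 7 counts with Eth and 18, 20 and 16 counts with Dex. The siHP1γ libraries held 10, 23 and 7 counts with Eth and 40, 35 and 35 counts with Dex. The siPRMT5 libraries held 6, 4 and 4 counts with Eth and 12, 15 and 17 counts with Dex. Scaled to depth, the siHP1γ Dex libraries (3.28 ± 0.137 CPM, mean ± SD) were above all others and the siPRMT5 Eth libraries (0.504 ± 0.125 CPM) had the lowest mean, below all siNS Eth libraries but overlapping those of siHP1γ Eth. The other 4 conditions overlapped with their neighbours in the order siNS Eth, siHP1γ Eth, siPRMT5 Dex, siNS Dex, and in siHP1γ cells with Eth 1 library had 2.15 CPM and the others 1.06 and 0.630 CPM. Dex raised INHBA by 1.35 ± 0.29 in siHP1γ cells (adjusted p = 0.00411, edgeR), and differences of 0.96 ± 0.37 in siNS cells (adjusted p = 0.111) and 1.47 ± 0.44 in siPRMT5 cells (adjusted p = 0.0209) missed the threshold in edgeR. With Dex, INHBA was higher in siHP1γ than in siNS cells by 0.93 ± 0.28 (adjusted p = 0.0153, edgeR). These calls rest on few counts. The Dex response in siHP1γ cells missed the threshold of 0.01 without siHP1γ Eth replicate 1 (1.25) or 3 (1.004), without siHP1γ Dex replicate 2 (1.32) or 3 (1.35), and in a fit of the siHP1γ libraries alone (1.35, adjusted p = 0.0224, edgeR). The difference between siHP1γ and siNS cells with Dex missed its threshold without siNS Dex replicate 1 (0.87) or 3 (0.81). The Dex response in siPRMT5 cells passed without siHP1γ Eth replicate 2 (1.47), a library of neither condition compared.

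TGFBR2 encodes the type II receptor, the ligand-binding kinase at the head of the pathway (ENSG00000163513, chromosome 3, 30606601 to 30694142, plus strand). In siNS cells its libraries had 703, 725 and 703 CPM with Eth and 768, 779 and 740.0 CPM with Dex. In siHP1γ cells they had 988, 979 and 1017 CPM with Eth and 973, 947 and 958 CPM with Dex. In siPRMT5 cells they had 949, 1066 and 1063 CPM with Eth and 1072, 1134 and 1144 CPM with Dex. Every library of either depletion was above every siNS library, the siPRMT5 Dex libraries were above all others, and only siHP1γ Eth and siPRMT5 Eth overlapped among neighbours in the order. With Eth, TGFBR2 was higher than in siNS cells by 0.48 ± 0.058 in siHP1γ cells (adjusted p = 6.00e-07, edgeR) and by 0.53 ± 0.058 in siPRMT5 cells (adjusted p = 5.16e-08, edgeR). With Dex, the increases were 0.33 ± 0.058 (adjusted p = 1.24e-04, edgeR) and 0.55 ± 0.058 (adjusted p = 2.58e-08, edgeR). The Dex response missed the threshold in siNS (0.10 ± 0.058), siHP1γ (-0.052 ± 0.058) and siPRMT5 cells (0.12 ± 0.058). With 6382 to 13813 counts per library, TGFBR2 had the deepest counts of the 9 genes, and its 4 depletion calls held in every alternative tried and with any library left out.

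TGFBR1 encodes the type I receptor, the kinase that phosphorylates SMAD2 and SMAD3 (ENSG00000106799, chromosome 9, 99104038 to 99154192, plus strand). Its siNS libraries had 98.0, 83.9 and 89.7 CPM with Eth and 83.6, 80.4 and 81.8 CPM with Dex. Its siHP1γ libraries had 86.3, 100.1 and 100.1 CPM with Eth and 97.8, 87.1 and 80.9 CPM with Dex. Its siPRMT5 libraries had 112, 123 and 134 CPM with Eth and 105, 119 and 106 CPM with Dex. The 6 siPRMT5 libraries were above the 12 others, and no other neighbours in the order were apart. PRMT5 depletion raised TGFBR1 by 0.44 ± 0.086 with Eth (adjusted p = 1.78e-04, edgeR) and by 0.43 ± 0.086 with Dex (adjusted p = 2.45e-04, edgeR), whereas the differences in siHP1γ cells were 0.079 ± 0.087 and 0.11 ± 0.087 and missed the threshold.

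TGFBR3 encodes betaglycan, a co-receptor without a kinase that presents ligands, TGF-β2 in particular, to TGFBR2 (ENSG00000069702, chromosome 1, 91680343 to 91906335, minus strand). In siNS cells its libraries had 46.3, 41.2 and 43.7 CPM with Eth and 77.2, 70.6 and 77.9 CPM with Dex. In siHP1γ cells they had 33.6, 37.4 and 32.6 CPM with Eth and 45.1, 44.7 and 39.8 CPM with Dex. In siPRMT5 cells they had 70.3, 70.1 and 89.2 CPM with Eth and 119, 138 and 123 CPM with Dex. Within each siRNA all Dex libraries were above all Eth libraries, siHP1γ Eth lay below and siPRMT5 Dex above all others, and siHP1γ Dex overlapped siNS Eth as siPRMT5 Eth overlapped siNS Dex. TGFBR3 was called with both treatments in both depletions, in opposite directions. It was lower than in siNS cells in siHP1γ cells, at -0.34 ± 0.099 with Eth (adjusted p = 0.00999, edgeR) and -0.80 ± 0.093 with Dex (adjusted p = 4.82e-07, edgeR). It was higher in siPRMT5 cells, by 0.81 ± 0.095 with Eth (adjusted p = 1.46e-07, edgeR) and 0.75 ± 0.089 with Dex (adjusted p = 1.71e-07, edgeR). Dex raised TGFBR3 by 0.78 ± 0.094 in siNS cells (adjusted p = 9.29e-07, edgeR) and by 0.73 ± 0.089 in siPRMT5 cells (adjusted p = 7.88e-07, edgeR). In siHP1γ cells the difference was 0.32 ± 0.098 (adjusted p = 0.0506, edgeR) and was not called. The change of the Dex response between siHP1γ and siNS cells was -0.46 ± 0.14 and missed the threshold (adjusted p = 0.109, edgeR). Without a filter on low counts, it passed, at -0.47 (adjusted p = 0.0441, edgeR).

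SMAD3 encodes the receptor-activated SMAD that carries the TGF-β signal to DNA (ENSG00000166949, chromosome 15, 67063763 to 67195173, plus strand). Among siNS libraries it was at 131, 130.04 and 133 CPM with Eth and 121, 103 and 116 CPM with Dex. Among siHP1γ libraries it was at 179, 156 and 175 CPM with Eth and 139, 137 and 139 CPM with Dex. Among siPRMT5 libraries it was at 145, 136 and 152 CPM with Eth and 100.0, 97.2 and 99.8 CPM with Dex. For each siRNA the Dex libraries were all below the Eth libraries. The order ran without overlap from siPRMT5 Dex through siNS Dex and siNS Eth to an overlapping pair, siHP1γ Dex and siPRMT5 Eth, with siHP1γ Eth above all others. The differences with Dex were -0.21 ± 0.070 in siNS cells (adjusted p = 0.0592, edgeR), -0.30 ± 0.069 in siHP1γ cells (adjusted p = 0.00704, edgeR) and -0.54 ± 0.070 in siPRMT5 cells (adjusted p = 1.87e-06, edgeR), and all were under the fold limit of 1.5. HP1γ depletion raised SMAD3, by 0.37 ± 0.069 with Eth (adjusted p = 1.94e-04, edgeR) and 0.28 ± 0.070 with Dex (adjusted p = 0.00401, edgeR). PRMT5 depletion lowered it with Dex, at -0.20 ± 0.071 (adjusted p = 0.0250, edgeR), while with Eth the difference was 0.13 ± 0.070 (adjusted p = 0.129, edgeR). The call with Dex in siPRMT5 cells was lost without siNS Dex replicate 1 (-0.15) or 3 (-0.18), without siPRMT5 Dex replicate 1 (-0.20), 2 (-0.18) or 3 (-0.20), and with no filter on low counts (-0.21, adjusted p = 0.0662, edgeR). The span of an antisense gene, ENSG00000259347, overlaps exons of SMAD3.

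SMAD6 encodes an inhibitory SMAD that acts mainly on BMP signalling (ENSG00000137834, chromosome 15, 66702236 to 66782849, plus strand), and its promoter is printed above. The siNS libraries held 8, 5 and 8 counts with Eth and 18, 16 and 18 counts with Dex. The siHP1γ libraries held 7, 18 and 17 counts with Eth and 17, 26 and 34 counts with Dex. The siPRMT5 libraries held 46, 31 and 47 counts with Eth and 50, 43 and 41 counts with Dex. The 6 siPRMT5 libraries, at 3.53 CPM or more, were above the 12 others, which reached at most 3.19 CPM, and no other neighbours in the order were apart. PRMT5 depletion raised SMAD6 by 2.57 ± 0.33 with Eth (adjusted p = 7.15e-07, edgeR), from a mean of 0.739 ± 0.201 to 4.42 ± 0.690 CPM. With Dex it raised it by 1.38 ± 0.27 (adjusted p = 1.95e-04, edgeR), from 1.65 ± 0.0790 to 4.35 ± 0.719 CPM. In siHP1γ cells the differences from siNS cells were 0.85 ± 0.42 with Eth (adjusted p = 0.123, edgeR) and 0.48 ± 0.30 with Dex (adjusted p = 0.267, edgeR). Without siHP1γ Dex replicate 1, the latter was 0.80 and passed (adjusted p = 0.04997, edgeR). The Dex response was 1.15 ± 0.40 in siNS cells (adjusted p = 0.0711, edgeR), with all Dex libraries above all Eth libraries, and -0.044 ± 0.23 in siPRMT5 cells (adjusted p = 0.934, edgeR), and neither was called. The difference between these responses was -1.19 ± 0.46 and missed the threshold (adjusted p = 0.149, edgeR).

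SMAD7 encodes the inhibitory SMAD that acts on TGF-β and activin receptors (ENSG00000101665, chromosome 18, 48919853 to 48950965, minus strand). The siNS libraries held 14, 15 and 28 counts with Eth and 14, 9 and 19 counts with Dex. The siHP1γ libraries held 16, 40 and 33 counts with Eth and 22, 23 and 24 counts with Dex. The siPRMT5 libraries held 28, 36 and 36 counts with Eth and 18, 18 and 9 counts with Dex. Each condition overlapped its neighbour in the order siNS Dex, siPRMT5 Dex, siNS Eth, siHP1γ Dex, siHP1γ Eth, siPRMT5 Eth, though in siPRMT5 cells all Dex libraries were below all Eth libraries. In siPRMT5 cells Dex lowered SMAD7 (log2 fold change -1.32 ± 0.30, adjusted p = 0.00248, edgeR), from 3.60 ± 0.610 to 1.42 ± 0.374 CPM. With Eth, PRMT5 depletion raised it by 0.85 ± 0.29 (adjusted p = 0.0199, edgeR). Both calls rest on few counts. The first was lost without siPRMT5 Eth replicate 2 (-1.20) and without siPRMT5 Dex replicate 2 (-1.33) or 3 (-1.15), and the second without siNS Eth replicate 1 (0.69) or 2 (0.68) and without siPRMT5 Eth replicate 2 (0.72). The Dex response was -0.58 ± 0.34 in siNS cells (adjusted p = 0.330, edgeR) and -0.46 ± 0.28 in siHP1γ cells (adjusted p = 0.426, edgeR), and its difference between siPRMT5 and siNS cells was -0.73 ± 0.46 (adjusted p = 0.412, edgeR), so the responses are not shown to differ.

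Set side by side, the depletions moved the 9 genes in unlike ways. With Dex, 4 of 9 genes differed between siHP1γ and siNS cells, where 24.0% of the 15298 genes tested were called at an adjusted p-value under 0.05 (11.7% higher and 12.3% lower), and 7 of 9 between siPRMT5 and siNS cells, where 42.4% were called (20.6% higher and 21.9% lower). TGFBR2, SMAD3 and INHBA were higher and TGFBR3 lower in siHP1γ cells. TGFB2, TGFBR1, TGFBR2, TGFBR3 and SMAD6 were higher and TGFB1 and SMAD3 lower in siPRMT5 cells. With Eth, 4 of 9 genes differed in siHP1γ cells against 31.8% of all genes (16.5% higher and 15.2% lower), with TGFB1, TGFBR2 and SMAD3 higher and TGFBR3 lower. With Eth in siPRMT5 cells, 6 of 9 differed against 42.1% of all genes (20.6% higher and 21.6% lower), all higher: TGFB2, TGFBR1, TGFBR2, TGFBR3, SMAD6 and SMAD7. The median difference over the 9 genes with Dex was 0.28 in siHP1γ and 0.32 in siPRMT5 cells (log2), and that over all genes was under 0.01 in both. The 2 depletions share their siNS libraries, so likeness between them is in part built in.

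**Figure D2:**
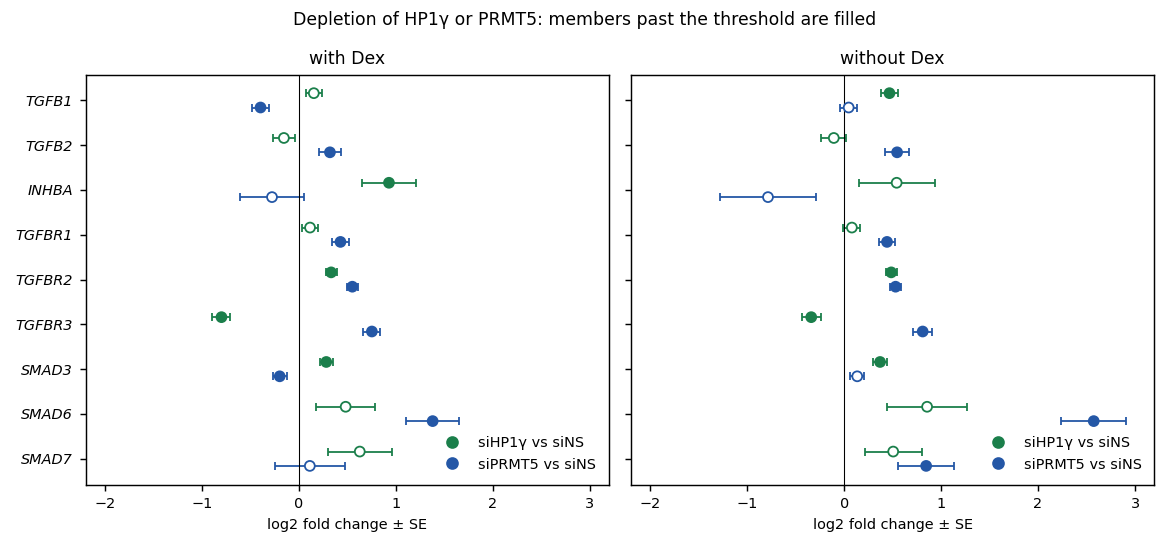
Differences from siNS cells (log2 fold change ± SE, x axis) of the 9 genes (y axis) in siHP1γ and siPRMT5 cells, with Eth and with Dex in separate panels; filled points have an adjusted p-value under 0.05 (edgeR). TGFBR2 lies to the right of 0 in all 4 cases and TGFBR3 to the left in siHP1γ and to the right in siPRMT5 cells.

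The depletions were also compared directly, between libraries of siPRMT5 and siHP1γ cells. With Dex, 8 of 9 genes differed, where 49.9% of all genes were called (24.4% higher and 25.5% lower), and with Eth 7 of 9, where 48.4% were called (23.4% higher and 25.0% lower). TGFBR3 was higher in siPRMT5 than in siHP1γ cells by 1.55 ± 0.092 with Dex (adjusted p = 4.92e-13, edgeR) and 1.15 ± 0.096 with Eth (adjusted p = 3.17e-10, edgeR). SMAD6 was higher by 0.90 ± 0.25 and 1.72 ± 0.29, TGFB2 by 0.48 ± 0.12 and 0.65 ± 0.12 and TGFBR1 by 0.31 ± 0.086 and 0.36 ± 0.086, in the same order of treatment and all called. TGFB1 was lower, at -0.55 ± 0.087 and -0.42 ± 0.086, as were SMAD3, at -0.48 ± 0.070 and -0.24 ± 0.069, and INHBA, at -1.21 ± 0.29 and -1.33 ± 0.45, also all called. The ligand genes TGFB1 and TGFB2 thus differed in opposite directions between the depletions. TGFBR2 was higher in siPRMT5 cells with Dex (0.22 ± 0.058, adjusted p = 0.00279, edgeR), and with Eth the difference was 0.045 ± 0.058 (adjusted p = 0.547, edgeR). SMAD7 differed by -0.52 ± 0.32 and 0.34 ± 0.26 and was called with neither treatment. With Eth, the INHBA call was lost without siHP1γ Eth replicate 2 (-0.71), the library with the highest value of its condition, or without siPRMT5 Eth replicate 3 (-1.17), and the SMAD3 call was lost without siPRMT5 Eth replicate 2 (-0.18). INHBA reached the 0.998 CPM of the filter in 0 siPRMT5 Eth and 2 siHP1γ Eth libraries. It was thus tested with Eth only through libraries of other conditions. In a fit of the libraries compared alone it was not tested, and 6 genes were called in place of 7.

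Dex responses were called at the limits set for Dex (adjusted p-value under 0.01, fold of 1.5 or more), which are stricter than the limit for depletions. At an adjusted p-value under 0.05 alone, 2 of 9 genes passed in siNS, 3 in siHP1γ and 6 in siPRMT5 cells (edgeR). The share of all genes at that limit was not counted, so these counts are not set against one. No difference between siRNAs is read from them. The calls that follow use the limits set for Dex. TGFB2 and TGFBR3 were called in siNS cells, 2 of 9 where 2.71% of all genes were called (1.65% higher and 1.06% lower), and both were higher. TGFB2 and INHBA were called in siHP1γ cells, 2 of 9 where 1.67% were called (1.01% higher and 0.660% lower), also higher. TGFBR3 was called higher and SMAD7 lower in siPRMT5 cells, 2 of 9 where 5.44% were called (2.69% higher and 2.75% lower). Differences in the Dex response were tested as an interaction at an adjusted p-value under 0.05. Between siHP1γ and siNS cells 0 of 9 passed in edgeR and in DESeq2, where 0.399% of all genes passed in edgeR (0.118% higher and 0.281% lower). At an unadjusted p-value under 0.05 there were 2 of 9 (edgeR), a limit at which the share of all genes was not counted. Between siPRMT5 and siNS cells 1 of 9 passed, where 3.80% of all genes passed (1.58% higher and 2.23% lower). This was TGFB1, with a Dex difference of 0.098 ± 0.086 in siNS cells and -0.34 ± 0.088 in siPRMT5 cells, and a difference of these of -0.44 ± 0.12 (adjusted p = 0.0403, edgeR). In siPRMT5 cells all 3 Dex libraries were below the 3 Eth libraries, whereas in siNS cells the treatments overlapped. The call held in the fits without siNS Eth replicate 2, siNS Dex replicate 2 or siHP1γ Dex replicate 1 or 3, and was lost in the other 14 of 18 fits that left out 1 library, which gave -0.54 to -0.36 in all. For SMAD3 the difference was -0.33 ± 0.099 (adjusted p = 0.0591, edgeR), and DESeq2 gave -0.33 (adjusted p = 0.0312). It also passed in edgeR without siNS Dex replicate 2 (-0.39) or siHP1γ Dex replicate 1 (-0.32).

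**Figure D3:**
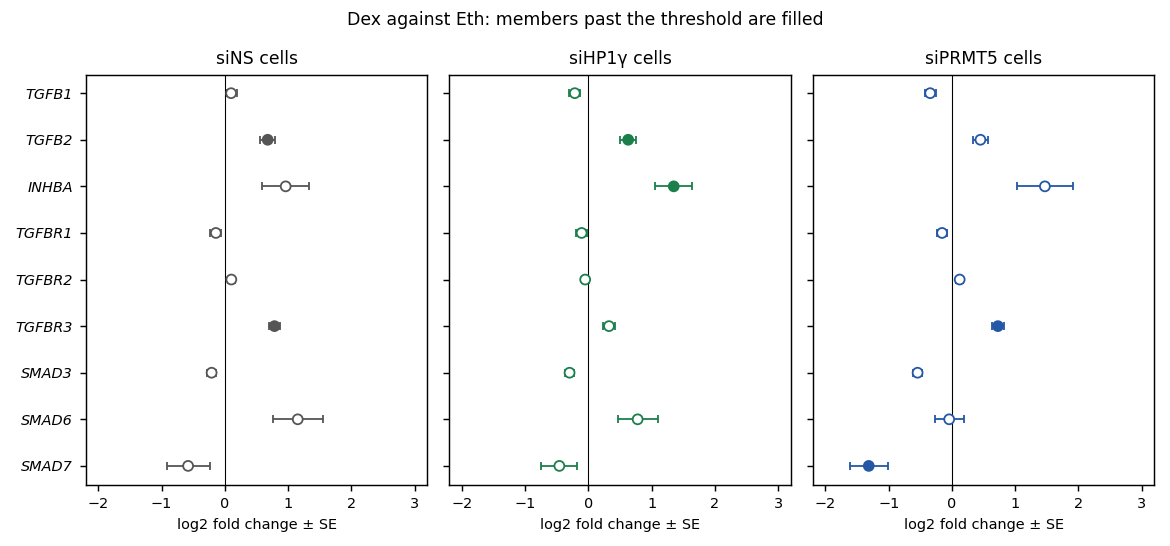
Dex against Eth (log2 fold change ± SE, x axis) for the 9 genes (y axis) in siNS, siHP1γ and siPRMT5 cells, a panel each; filled points passed both limits set for Dex (edgeR). TGFB2, TGFBR3 and INHBA lie to the right of 0 in all 3 panels and TGFBR1, SMAD3 and SMAD7 to the left, not all of them as filled points.

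The genes whose pattern over the 18 libraries was most like that of each of the 9 were named from 11396 candidates with a mean of at least 5 CPM, by Pearson's r of log2 CPM, as a description only, since the libraries share conditions. They were TNFRSF1A (0.971) and LIFR (0.970) for TGFBR3, SAV1 (0.964) and ANKMY2 (0.952) for TGFBR1, and DAAM1 (0.955) and JAG1 (0.954) for TGFBR2. For SMAD3 they were GFPT2 (0.962) and NFE2L3 (0.961), for TGFB1 SEC24C (0.954) and PAK4 (0.953), and for TGFB2 IRS1 (0.939) and ZC3H12C (0.935). The genes with few counts had less close neighbours: SLC37A2 (0.928) and GALNT2 (0.916) for SMAD6, BPGM (0.860) and PDE4DIP (0.829) for SMAD7, and ALKBH2 (0.859) and OSBPL1A (0.858) for INHBA. None of the 9 genes was itself a candidate.

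The other genes of the pathway were described in lists written from general knowledge, with earlier results of these data known. Counts called among those tested are therefore a description and not a test. They stand beside the shares of all genes called, which were 2.71% for Dex in siNS cells, 24.0% for siHP1γ against siNS cells with Dex and 42.4% for siPRMT5 against siNS cells with Dex. The share of all genes with an unadjusted p-value under 0.05 was not counted. Ligands are stored outside the cell and freed from latency by proteins of a list of 13, of which 11 were tested. With Dex in siNS cells LTBP1, which tethers latent TGF-β to the matrix, rose from 12.6 ± 1.32 to 45.1 ± 3.68 CPM, by 1.84 ± 0.096 (adjusted p = 1.27e-13, edgeR). LTBP2, of the same protein family, fell by 0.63 on the log2 scale. With Dex, 4 of the 11 were higher and 2 lower in siHP1γ than in siNS cells (11.7% and 12.3% of all genes), and 6 were higher and 1 lower in siPRMT5 than in siNS cells (20.6% and 21.9% of all genes). LTBP1 was higher in both (0.40 and 0.53), as was NRROS, a binder of latent TGF-β (1.07 and 0.56). ITGAV, an integrin chain that takes part in TGF-β activation, differed by -0.37 in siHP1γ and 0.51 in siPRMT5 cells, both called, and FBN1 by -0.62 and 0.25, both called. The protease gene FURIN, which cleaves the ligand precursor, differed by 0.36 and -0.37, both called.

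Of 16 other ligands of the family, 8 were tested. With Dex in siNS cells 1 was called, BMP6, which was lower (-1.30), where 2.71% of all genes were called (1.65% higher and 1.06% lower). With Dex, 4 were higher and 2 lower in siHP1γ cells, where 24.0% of all genes were called, and 1 was higher and 5 lower in siPRMT5 cells, where 42.4% were. TGFB3, the third TGF-β ligand, was higher in both (1.32 ± 0.38 and 2.0 ± 0.35). BMP2 and BMP8B were lower in both (-0.97 and -0.77 for BMP2, -0.42 and -0.50 for BMP8B). INHBE, an activin chain, was higher in siHP1γ (1.16 ± 0.22) and lower in siPRMT5 cells (-2.32 ± 0.37), and INHBB was lower in siPRMT5 cells (-1.52 ± 0.31). BMP4 (0.40) and BMP6 (0.77) were higher in siHP1γ cells and GDF11 (-0.62) was lower in siPRMT5 cells. Of the 3 extracellular antagonists tested of 8 listed, Dex in siNS cells raised FSTL3 (1.15), a binder of activin, and lowered NOG (-0.84), a binder of BMPs. With Dex, FSTL3 (-0.87) and NOG (-0.56) were lower and FST (0.83), which encodes the activin binder follistatin, was higher in siPRMT5 than in siNS cells, and 0 of the 3 were called in siHP1γ cells by edgeR or DESeq2, with 1 at an unadjusted p-value under 0.05. BMP2, BMP6, TGFB3, INHBE, INHBB, FURIN, the siHP1γ value of ITGAV and the siPRMT5 value of FBN1 lie outside the naming rule and were chosen after their values were seen. Of these, BMP2, BMP6, TGFB3, INHBE and INHBB are genes with few counts, with a mean under the 5 CPM that the rule asks for.

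Of 10 other receptors tested of 13 listed, 0 were called for Dex in siNS cells by edgeR or DESeq2, and 0 had an unadjusted p-value under 0.05. With Dex, 3 of the 10 were called in siHP1γ cells, near the 24.0% of all genes called there. BAMBI, a decoy receptor (0.48), and ACVR1B (0.26, adjusted p = 0.0499, edgeR) were higher, and BMPR1A, a BMP type I receptor (-1.09), was lower. In siPRMT5 cells 5 of the 10 were called, near the 42.4% of all genes called there. ACVR2B (1.13) and ACVR2A (0.30), activin type II receptors, and ENG (0.24), a co-receptor related to TGFBR3, were higher. ACVR1B (-0.37) and BMPR1B (-1.52, named after its value was seen, with a mean under 5 CPM) were lower. Of the 5 other SMAD genes, 0 were called by edgeR or DESeq2 for Dex in siNS cells or for HP1γ depletion with Dex, and 0 and 1 had an unadjusted p-value under 0.05. In siPRMT5 cells 2 of the 5 were called, near the 42.4% of all genes. SMAD2, the partner of SMAD3, was higher there (0.33) and SMAD9, of the BMP branch, was lower (-1.12). Of 17 regulators of SMADs and receptors, Dex in siNS cells lowered SMURF2 (-0.85, from 446 ± 14.7 to 247 ± 12.6 CPM) and NEDD4L (-0.64), ubiquitin ligases that mark SMADs and receptors for degradation. These were the 2 called, where 2.71% of all genes were called (1.65% higher and 1.06% lower). With Dex, 4 of the 17 were higher and 2 lower in siHP1γ cells, beside 24.0% of all genes called, and 9 were higher and 4 lower in siPRMT5 cells, beside 42.4%. NEDD4L was lower in siHP1γ cells (-0.74) and in siPRMT5 cells (-0.42, named after its value was seen). SMURF2 was lower in siPRMT5 cells (-0.53), where the SMAD corepressor genes SKI (0.57), SKIL (0.43) and TGIF1 (0.47) were higher.

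Of 26 known targets of TGF-β or BMP signalling tested, Dex in siNS cells raised 4 and lowered 2. Of all genes, 1.65% were called higher there and 1.06% lower. SNAI2, an inducer of epithelial-mesenchymal transition, rose by 2.39 ± 0.071 (adjusted p = 2.13e-18, edgeR), from 28.1 ± 1.20 to 147 ± 6.02 CPM, and FN1, fibronectin, by 1.74 ± 0.092 (adjusted p = 1.50e-13, edgeR). ANGPTL4 rose by 3.14 ± 0.29 and ID1 by 1.36, the latter named after its value was seen, while the cytokine gene IL11 fell by 2.14 on the log2 scale. The sixth was LTBP2, which is in a list above as well, as are BAMBI and SKIL. With Dex, 9 of the 26 were higher and 6 lower in siHP1γ cells, where 24.0% of all genes were called, among them ADAM12 (1.36) and SNAI1 (0.87). In siPRMT5 cells 7 were higher and 6 lower, among them COL1A1 (1.20), ANGPTL4 (0.87), CCN2 (-0.82) and IL11 (-2.46). These 13 of 26 are a share near the 42.4% of all genes called there. The median difference of these targets was 0.25 in siHP1γ and 0.038 in siPRMT5 cells (log2), beside medians under 0.01 over all genes. Some of these targets are also known to respond to glucocorticoids.

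**Figure D4:**
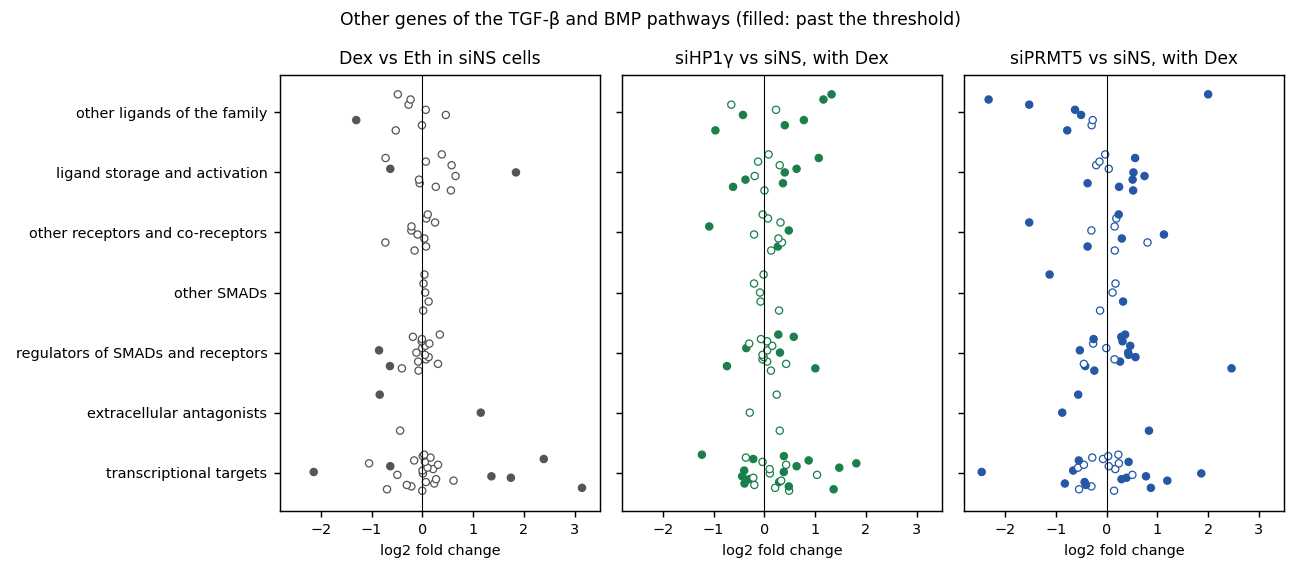
Log2 fold changes (x axis) of the tested genes of 7 pathway lists (y axis), a point per gene, for Dex in siNS cells and for each depletion with Dex; filled points passed the threshold of their comparison (edgeR). Points lie on both sides of 0 in most lists, and the 10 other receptors have no filled point for Dex in siNS cells.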

How the data were processed

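RNA of MDA-MB-231 cells in 6 conditions with 3 biological replicates each was measured in 18 libraries, grouped by the siRNA, treatment and replicate in their labels. The authors prepared libraries with a Lexogen kit, mapped reads on hg38 with Bowtie2 2.4.2, counted them with HTSeq 0.9.1 and deposited raw counts per gene symbol (60642 symbols, 0 rows without a gene name, 0 columns of other samples). Strand setting, read length and annotation are not given in the sources used here. Overlapping or antisense genes can therefore share counts. The deposited table of the authors' own comparisons (DESeq2 2.11.40.7, fold changes and p-values) was not used.

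Genes were filtered with filterByExpr (0.998 CPM, 10 counts), leaving 15298, scaled by TMM and fitted in edgeR 4.0.16 (R 4.3.3) by quasi-likelihood, with a mean for each condition, leaving 12 residual degrees of freedom. Adjusted p-values are Benjamini-Hochberg over 15298 genes. Dex responses were called at a fold of 1.5 or more with an adjusted p-value under 0.01, depletions and interactions at one under 0.05. SE is the log2 fold change over the square root of F. An exact two-sided permutation test of 3 against 3 cannot go below 0.1, so none was run. Replicates differed by 2.01 to 11.3 in chi-square per degree of freedom, and all 18 were kept. The 11.3 was between siHP1γ Dex replicates 1 and 3, with 6.80 between 1 and 2 and 3.03 between 2 and 3. Pairs of the other conditions were at 6.67 or less.

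The 9 genes and the lists were chosen with earlier results of these data known. Named beside them were, per list and comparison, up to 4 called genes with the largest fold change and a mean of at least 5 CPM, and the 2 genes closest to each of the 9 in pattern. Coordinates are from GENCODE 44, which holds 37471 of the symbols, and promoters from RefSeq (GRCh38.p14). Alternatives were DESeq2 1.42.0, its size factors in edgeR, library size alone, no filter, at least 10 counts in every library, a replicate block, only the libraries compared, a fold of 2 for Dex and each library left out.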

Additional observations from a re-analysis of the deposited data

Results flagged for a closer look

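TGFB1 was the gene of the 9 whose Dex response differed between siRNAs by a test of the difference itself: its log2 fold change for Dex in siPRMT5 cells minus that in siNS cells was -0.44 ± 0.12 (SE, 3 libraries per condition, adjusted p = 0.0403, edgeR), where 3.80% of all genes passed. The call was lost in 14 of 18 fits that left out 1 library (adjusted p from 0.0541 to 0.154 in these 14) and with only the 12 libraries compared (-0.43, adjusted p = 0.0571, edgeR). The part of reads of HNRNPUL1, whose gene span overlaps exons of TGFB1, was not tested.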

How the results depend on the processing

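The number of the 9 genes called was within 1.5 times the main count for 6 of the 11 comparisons (both depletions with Dex and with Eth, and siPRMT5 against siHP1γ cells with either treatment) under every alternative. With a fold of at least 2, the Dex calls went from 2 to 0 in siNS cells, to 1 in siHP1γ cells and to 1 in siPRMT5 cells. With at least 10 counts in every library, which drops the 3 genes with few counts, they went from 2 to 1 in siHP1γ and 1 in siPRMT5 cells, and with only the libraries compared from 2 to 1 in siHP1γ cells. For the difference of the Dex response in siHP1γ cells, no filter gave 1 call (TGFBR3) in place of 0. In siPRMT5 cells, DESeq2 gave 2, the replicate block 2 and the libraries compared alone 0, in place of 1. With library size alone, 1 of the other SMADs and 1 of the antagonists were called in siHP1γ cells with Dex in place of 0, and 69.1% of all calls there were higher, against 48.7% with TMM (63.7% against 52.1% with Eth). The cause was not tested.

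The labels give a replicate number but not what libraries of the same number share. Deviations of libraries with the same number correlated by -0.186 to 0.315 (median 0.0066, 45 pairs), and 10 of 18 libraries were closest to their own number. With 3 numbers to be closest to, some such matches arise without anything shared. Whether a number marks a shared experiment was not tested. With the number as a replicate block, SMAD3 joined TGFB1 for the Dex response of siPRMT5 against siNS cells (-0.33, adjusted p = 0.0414, edgeR), and no other call of the 9 genes changed.

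Leaving out 1 library in turn gave 2 calls for Dex in siNS, 0 to 2 in siHP1γ and 1 to 3 in siPRMT5 cells, 3 to 5 and 5 to 7 for siHP1γ and siPRMT5 against siNS cells with Dex, 4 and 5 to 6 with Eth, 0 and 0 to 2 for the changed Dex responses, and 8 with Dex and 6 to 7 with Eth for siPRMT5 against siHP1γ cells. Signs turned 23 times, counted over genes, comparisons and the 18 fits, all for differences not called. Against siNS cells, these were TGFB1 with Eth in siPRMT5 cells (-0.032 to 0.15), INHBA with Eth in siHP1γ cells (-0.080 to 0.88) and SMAD7 with Dex in siPRMT5 cells (-0.045 to 0.36). The others were the Dex response of SMAD6 in siPRMT5 cells (-0.16 to 0.11), and the changed Dex responses in siHP1γ cells of TGFB2 (-0.12 to 0.090), TGFBR1 (-0.036 to 0.10) and SMAD7 (-0.25 to 0.38) and in siPRMT5 cells of TGFBR1 (-0.074 to 0.063), TGFBR2 (-0.029 to 0.063) and TGFBR3 (-0.11 to 0.077). Depth limits SMAD6, SMAD7 and INHBA (4 to 50 counts per library).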
